A study of Saccharomyces cerevisiae with 18 samples.

Results

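The genes described here are the 54 yeast genes named *MRPL*, *MRPS* or *RSM* with a number, out of 5830 genes in the expression table. They encode proteins of the mitochondrial ribosome. The members were chosen by name alone: 34 *MRPL* genes of the large subunit, and 20 genes of the small subunit (9 *MRPS* and 11 *RSM* genes). All 54 passed the filter on low values and were among the 5786 genes tested.

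RNA was sequenced from 18 libraries of *Saccharomyces cerevisiae*, with 3 biological replicates for each of 6 strains grown to mid-log density in the glucose-rich medium YPD. The strains were *ioc3*Δ*cHLB yaf9*Δ, *ioc3*Δ *yaf9*Δ, *ioc3*Δ*cHLB*, *ioc3*Δ, *yaf9*Δ and wild type, all labelled as FLAG-tagged and of the BY4742 background. Ioc3 is the subunit that defines the chromatin remodeler ISW1a; *ioc3*Δ lacks the gene, while *ioc3*Δ*cHLB* lacks only a helix and a strand of its linker-DNA-binding (HLB) domain. Yaf9 is a subunit shared by the histone acetyltransferase NuA4 and the histone exchanger SWR1, and the comparisons ask what Ioc3 or its HLB domain does with and without it.

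Mitochondrial ribosomes translate the few proteins that mitochondrial DNA encodes, most of them subunits of the respiratory chain and the ATP synthase. Nearly all proteins of this ribosome are encoded in the nucleus, made in the cytosol and imported. Some have bacterial counterparts (named u or b, as in uL29m) and others are found in mitochondria only (named m, as in mL40). In yeast, many mRNAs for mitochondrial ribosomal proteins are bound in their 3′ region by the RNA-binding protein Puf3, which recognises a UGUA-type element.

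The letters TGTANATA, a form of the Puf3 element, occurred within 250 bases after the stop codon, on the coding strand, in 53 of the 54 genes (98.15%) and in 891 of 5633 measured genes with an annotation (15.82%). All 34 large-subunit genes and 19 of 20 small-subunit genes had them, *RSM22* being the exception. With a C, then any base, just before them (a subset of the same matches) the letters occurred in 43 of the 54 genes (79.63%) and in 4.704% of measured genes. On the opposite strand (TATNTACA) they occurred in 20.37% of the 54 and in 14.97% of measured genes. A match is a description of the letters, not of binding. The sites of the genes that later show the largest and the most unusual changes are given so that they can be read side by side, from the RefSeq R64 sequence (sacCer3), in the sense of the gene, with the match in capitals:
MRPL28: gtctcctgcTGTAAATAactgatgat
MRPL32: acttaagccTGTATATAgaaacttaa
MRPL4: cctctctccTGTAAATAtatatatat
MRPL31: aatttcatcTGTATATAgtttaatca
MRPS8: tacggaccaTGTAAATAataatatta
MRPS17: actacactcTGTAAATAtatacaact
RSM19: gggatctagTGTATATAgatttctag
RSM19, next match: gatatatcaTGTAAATAagatcaagc
RSM19, last match: gactcgggcTGTATATAtatatatat
MRPS12: acaacctttTGTAAATAgcaatgacc

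These stretches lie at chrIV:1386539-1386564 (*MRPL28*), chrIII:119208-119233 (*MRPL32*), chrXII:1015469-1015494 (*MRPL4*) and chrXIII:572763-572788 (*MRPS8*) on the plus strand. On the minus strand they lie at chrXI:185227-185252 (*MRPL31*), chrXIII:636219-636244 (*MRPS17*), chrXIV:694271-694296 (*MRPS12*) and, for *RSM19*, chrXIV:695026-695051, chrXIV:694998-695023 and chrXIV:694970-694995. *MRPL28* had one further match, and *RSM19* had 3 in all. *RSM19* (chrXIV:695052-695327) and *MRPS12* (chrXIV:694361-694822) are neighbours on one strand with 229 bases between them. Over the 53 genes there were 68 matches, the first base of the match lying 8 to 238 bases after the stop codon (median 57.5), and 59 of the 68 lay within 100 bases. In the 250 bases upstream of the start codon, 6 further motifs were counted on both strands, and none reached a similar share. The Abf1 motif (TCA and ACG with 6 bases between them) was in 24.07% of the 54 genes against 13.35% of measured genes. The Reb1 motif CGGGTAA was in 14.81% against 7.421%, the Hap-complex letters CCAAT in 29.63% against 35.66%, and the stress-element letters CCCCT in 9.259% against 19.03%. The 2 ribosome-biogenesis motifs, GATGAG (PAC) and AAAATTTT (RRPE), were in 16.67% against 16.71% and in 1.852% against 8.983%.

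**Figure D1:**
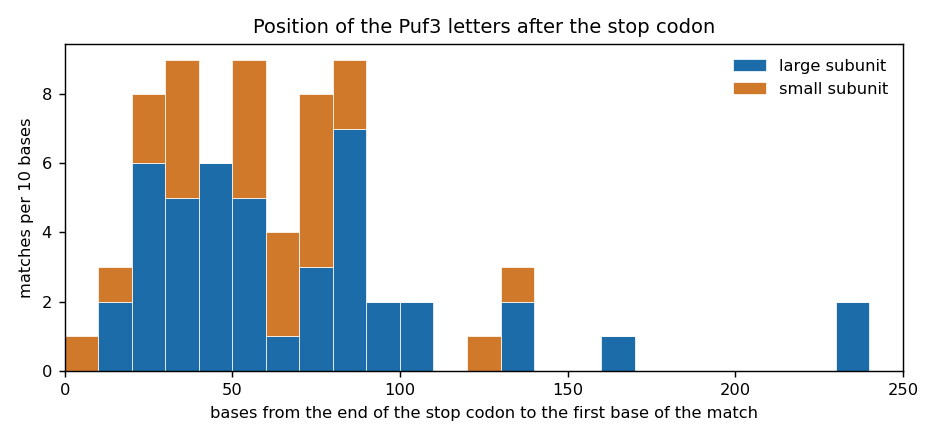
Number of TGTANATA matches per 10 bases (vertical axis) by distance in bases from the stop codon to the first base of the match (horizontal axis), for large-subunit and small-subunit genes stacked. Of 68 matches, 59 lie within 100 bases of the stop codon.

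Library totals ran from 5145170 to 10192972 reads. *IOC3* had 2 reads over the 3 *ioc3*Δ libraries and 1 over the 3 *ioc3*Δ *yaf9*Δ libraries, and *YAF9* had 0 reads in both double mutants and 3 over the 3 *yaf9*Δ libraries. Several markers went against the labelled background, BY4742 being a MATα strain that lacks *LYS2*: *STE2*, the α-factor receptor made by **a** cells, averaged between 742 and 1024 CPM by strain, *STE3*, its α-cell counterpart, between 1.0 and 12.1 CPM, and *LYS2* read between 171 and 193 CPM. This held in all 6 strains. Other auxotrophic marker genes of that background were read too. By strain, *LEU2* averaged between 53.0 and 147 CPM, *URA3* between 126 and 174 CPM and *HIS3* between 9.9 and 14.2 CPM. Of further **a**-specific genes, *MFA1* averaged between 247 and 444 CPM by strain, *MFA2* between 546.3 and 916.5 CPM and *BAR1* between 255 and 337 CPM. Less clear were *SAG1*, encoding the agglutinin of α cells, at 28.1 to 45.9 CPM by strain, and the **a**-specific gene *ASG7*, at 7.0 to 12.8 CPM. Wild-type replicate 2 stood apart from its replicates over the whole table, its reads differing from those of the other wild-type libraries with chi-square values of 56.5 and 50.3 for each degree of freedom, where those libraries gave 14.9 between themselves. By the same measure *ioc3*Δ*cHLB* replicate 3 gave 44.8 and 34.4, against 19.6 between the others of its strain, *ioc3*Δ *yaf9*Δ replicate 3 gave 34.2 and 40.1, against 11.1, and *ioc3*Δ*cHLB yaf9*Δ replicate 1 gave 29.1 and 32.0, against 4.23. The *ioc3*Δ libraries gave 23.3 to 42.3 among themselves and the *yaf9*Δ libraries 2.76 to 7.53.

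Levels are the deposited CPM, reads per 1000000 of the effective library size. The 34 large-subunit genes together reached 3442, 2536 and 2530 CPM in the *ioc3*Δ*cHLB yaf9*Δ libraries, 5124, 4413 and 5089 CPM in *ioc3*Δ *yaf9*Δ, 2451, 2271 and 1550 CPM in the *ioc3*Δ*cHLB* libraries, 4593, 4224 and 4777 CPM in *ioc3*Δ, 3441, 3248 and 3375 CPM in *yaf9*Δ, and 3154, 1606 and 3328 CPM in wild type. The 20 small-subunit genes gave 2538, 1894 and 1889 CPM in the *ioc3*Δ*cHLB yaf9*Δ libraries, 3618, 3187 and 3687 CPM in *ioc3*Δ *yaf9*Δ, 1760, 1601 and 1113 CPM in the *ioc3*Δ*cHLB* libraries, 3124, 2925 and 3260 CPM in *ioc3*Δ, 2595, 2471 and 2507 CPM in *yaf9*Δ, and 2195, 1107 and 2293 CPM in wild type. The 6 libraries lacking Ioc3 were the 6 highest for both subunits and overlapped no other library. Wild-type replicate 2 and *ioc3*Δ*cHLB* replicate 3 were the lowest, and *ioc3*Δ*cHLB yaf9*Δ replicate 1 stood above the other libraries of its strain. Fewer mitochondrial ribosome mRNAs per cell and more of other mRNAs cannot be told apart on this scale.

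**Figure D2:**
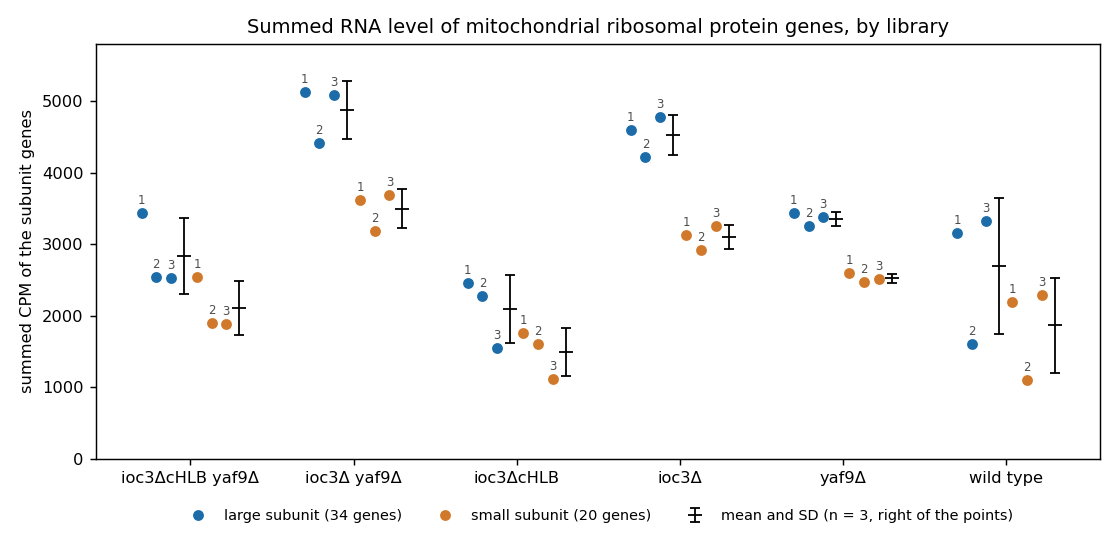
Summed CPM (vertical axis) of the large-subunit and small-subunit genes in each library, by strain, with replicate numbers above the points and the mean and SD of 3 libraries beside them. The *ioc3*Δ *yaf9*Δ and *ioc3*Δ libraries lie above all others, and wild-type replicate 2, at 1606 and 1107 CPM, lies near *ioc3*Δ*cHLB* replicate 3, at 1550 and 1113 CPM.

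Some other genes also differed in these outlying libraries. The stress-response gene *HSP12*, a target of Msn2 and Msn4, read 138, 57.1 and 5.22 CPM in the *ioc3*Δ*cHLB* libraries, against 452, 6.79 and 341 CPM in wild type, so it was lowest in the same libraries. It read 51.5, 7.43 and 893 CPM in the *ioc3*Δ libraries, and replicate 2 was also the lowest of that strain for both subunits. In 6 of 6 strains the library with the least *HSP12* was the one with the lowest sum of the 54 genes. In *ioc3*Δ*cHLB yaf9*Δ this was close, replicates 2 and 3 having 20.9 and 19.6 CPM of *HSP12* and 4430 and 4419 CPM of the 54 genes. The summed stress genes, a list that holds *HSP12*, followed it in part of the strains. In *yaf9*Δ they ranked as *HSP12* did, at 2826, 2059 and 2290.5 CPM against 1428, 1042 and 1142 CPM. Replicate 3 was highest for both in *ioc3*Δ (801, 1019 and 2201 CPM of the stress genes) and in *ioc3*Δ *yaf9*Δ (612.5, 616.8 and 1293.7 CPM). The stress genes did not follow *HSP12* in wild type (983, 1010 and 923 CPM) or in the *ioc3*Δ*cHLB* libraries (835, 944 and 938 CPM). Nor did they in *ioc3*Δ*cHLB yaf9*Δ (858, 1280 and 1635 CPM). The summed respiratory chain genes moved the other way in some strains only. They read 2639, 3402 and 3441 CPM in the *ioc3*Δ*cHLB yaf9*Δ libraries and 4269, 3746 and 4639 CPM in the *ioc3*Δ*cHLB* libraries. Wild type gave 3774, 5596 and 3876 CPM. In *yaf9*Δ, at 4513, 4408 and 4838 CPM, replicate 2 was lowest for both this sum and the 54 genes. Replicate 3 was highest for both in *ioc3*Δ (3008, 3121 and 3177 CPM) and in *ioc3*Δ *yaf9*Δ (2479.3, 2672.5 and 2773.7 CPM). The part of these differences between cultures in the results was not tested. Counts of genes called against wild type are therefore given with and without wild-type replicate 2.

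The 54 genes varied together across libraries. The SD of log2(CPM + 1) over the 18 libraries had a median of 0.54 over the genes, with 0.33 for *RSM22* and 0.73 for *RSM19* at the ends. After the median of the 54 genes was subtracted in each library, the SD had a median of 0.13, ranging between 0.070 for *MRPL1* and 0.29 for *MRPL39*. The strain mean was highest in *ioc3*Δ *yaf9*Δ for 38 genes and in *ioc3*Δ for 16. It was lowest in *ioc3*Δ*cHLB* for 51 and in *ioc3*Δ*cHLB yaf9*Δ for 3.

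Per kilobase of coding sequence, wild-type levels had a median of 126 CPM per kb in the large subunit and 128 CPM per kb in the small. In the large subunit the highest was *MRPL51* (protein mL43) at 220 and the lowest *MRPL4* (uL29m) at 60.2 CPM per kb. In the small subunit the highest was *MRPS12* (uS12m, whose bacterial counterpart lies at the decoding centre) at 279 and the lowest *RSM22*, which encodes a methyltransferase-like protein, at 31.5 CPM per kb.

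**Figure D3:**
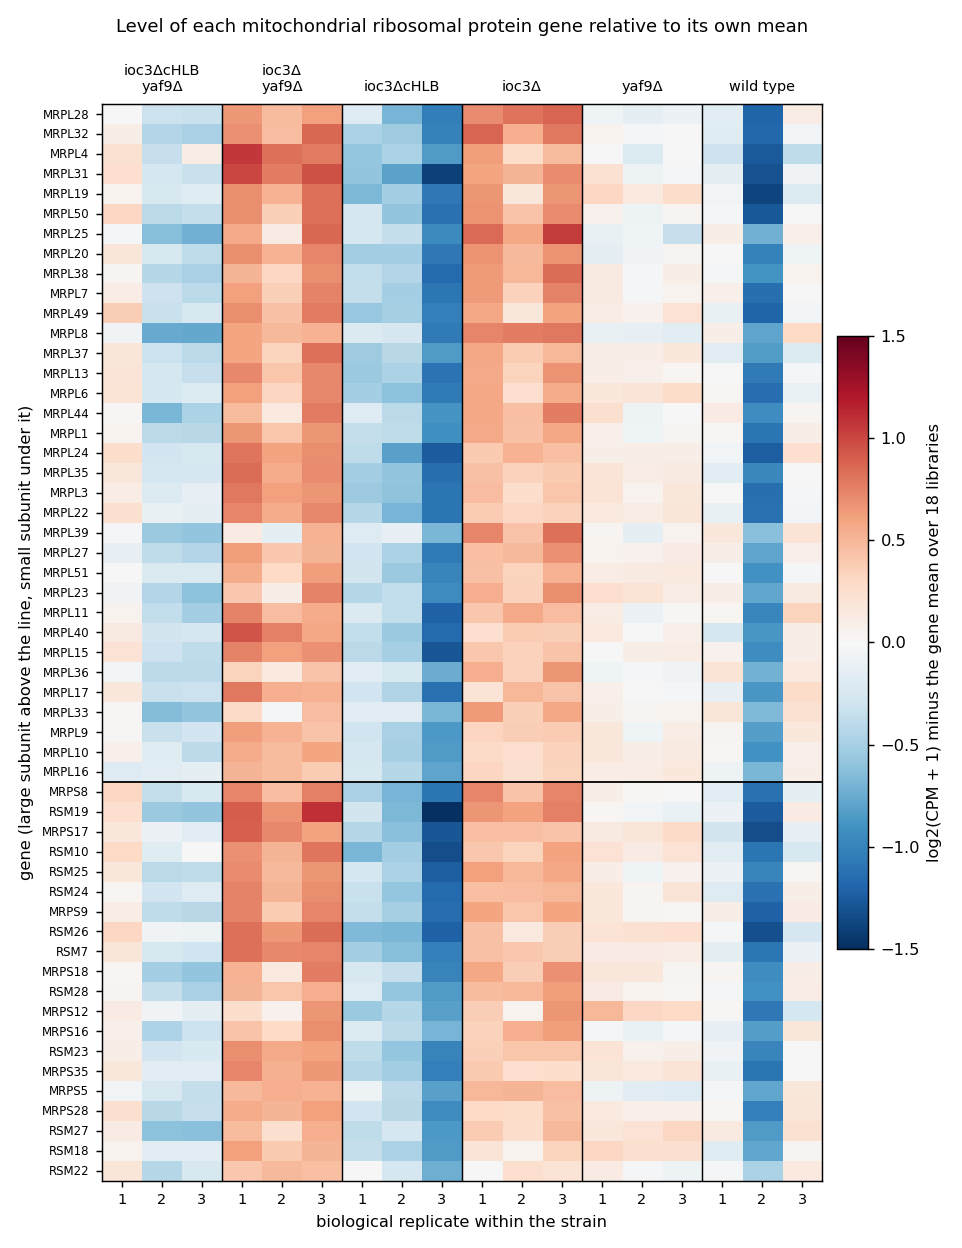
Level of each of the 54 genes (rows) in each of the 18 libraries (columns, grouped by strain), as log2(CPM + 1) minus the mean of that gene over all libraries. The columns of *ioc3*Δ *yaf9*Δ and *ioc3*Δ are high and those of wild-type replicate 2 and *ioc3*Δ*cHLB* replicate 3 are low in nearly every row, and the *RSM22* row is the palest.

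Deletion of *IOC3* was accompanied by higher levels of nearly the whole set. In *ioc3*Δ against wild type, 48 of the 54 genes were called higher and 0 lower, a call being a Benjamini-Hochberg adjusted p under 0.1 together with 1.5-fold or more. Of all genes tested, 9.04% were called higher and 3.11% lower. On the recovered reads, edgeR called 44 and DESeq2 42 of them. The large subunit gave 31 of 34 and the small subunit 17 of 20. The median log2 change was 0.83 for the large and 0.81 for the small subunit, against 0.01 over all genes tested, and all 54 changes were above 0. In 52 genes every *ioc3*Δ library lay above every wild-type library, a separation found in 19.6% of genes tested. The 33 proteins with bacterial counterparts and the 21 without them had medians of 0.81 each.

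The large-subunit change was led by *MRPL28*, encoding mL40, which read 87.0, 93.6 and 97.2 CPM in *ioc3*Δ, against 47.2, 22.4 and 57.3 CPM in wild type. Its log2 change was 1.21 ± 0.25 (SE, adjusted p = 0.0044). *MRPL32* (bL32m) read 114, 90.6 and 107 CPM in *ioc3*Δ, against 54, 26.8 and 59.9 CPM in wild type, which gave a log2 change of 1.20 ± 0.24 (adjusted p = 0.00331). In neither gene did the strains overlap, and wild-type replicate 2 was the lowest library in both. *MRPL4* (uL29m) read 136, 106 and 122 CPM in *ioc3*Δ, against 70.3, 36.1 and 66.8 CPM in wild type, which gave a log2 change of 1.11 ± 0.21 (adjusted p = 0.00251). The smallest large-subunit change was that of *MRPL16* (uL16m), at 119, 113 and 120 CPM in *ioc3*Δ, against 89.9, 58.6 and 101 CPM in wild type. Its change of 0.52 ± 0.16 had an adjusted p of 0.0299 but was under 1.5-fold.

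In the small subunit, *MRPS8* (uS8m) read 105, 85.2 and 106 CPM in *ioc3*Δ, against 56.7, 28.7 and 57.0 CPM in wild type, which gave a log2 change of 1.10 ± 0.23 (adjusted p = 0.00465). *RSM19* (uS19m) read 72.1, 69.4 and 77.0 CPM in *ioc3*Δ, against 42.6, 18.6 and 49.6 CPM in wild type, which gave a log2 change of 1.07 ± 0.33 (adjusted p = 0.0306). *MRPS17* (uS17m) read 173, 173 and 170 CPM in *ioc3*Δ, against 105, 49.9 and 117 CPM in wild type, which gave a log2 change of 1.01 ± 0.25 (adjusted p = 0.0111). All of these *ioc3*Δ libraries lay above every wild-type library. *RSM22*, the gene without the Puf3 letters, read 63.6, 76 and 73.6 CPM in *ioc3*Δ, against 62.3, 45.6 and 70.5 CPM in wild type. Its libraries overlapped, and its change of 0.27 ± 0.18 (adjusted p = 0.327) was the smallest of the 54. The others not called were *MRPL9* (0.57), *MRPL10* (0.57) and *RSM18* (0.50), each with an adjusted p under 0.1 and a change under 1.5-fold, and *RSM27* (0.54, adjusted p = 0.135).

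The size of this difference rested partly on one library. Without wild-type replicate 2, all 54 changes were still above 0, with a median of 0.48, and 14 genes were called higher, all of them among the 48 (7.65% of all genes were called higher). They were 10 large-subunit genes, including *MRPL28* (0.82 ± 0.18), and 4 small-subunit genes, including *MRPS8* (0.78 ± 0.19). *RSM19* was not among them (0.65 ± 0.29, adjusted p = 0.14). *RSM22* was again the lowest, at 0.10 ± 0.19. Leaving out *ioc3*Δ*cHLB* replicate 3 as well gave 15 genes.

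**Figure D4:**
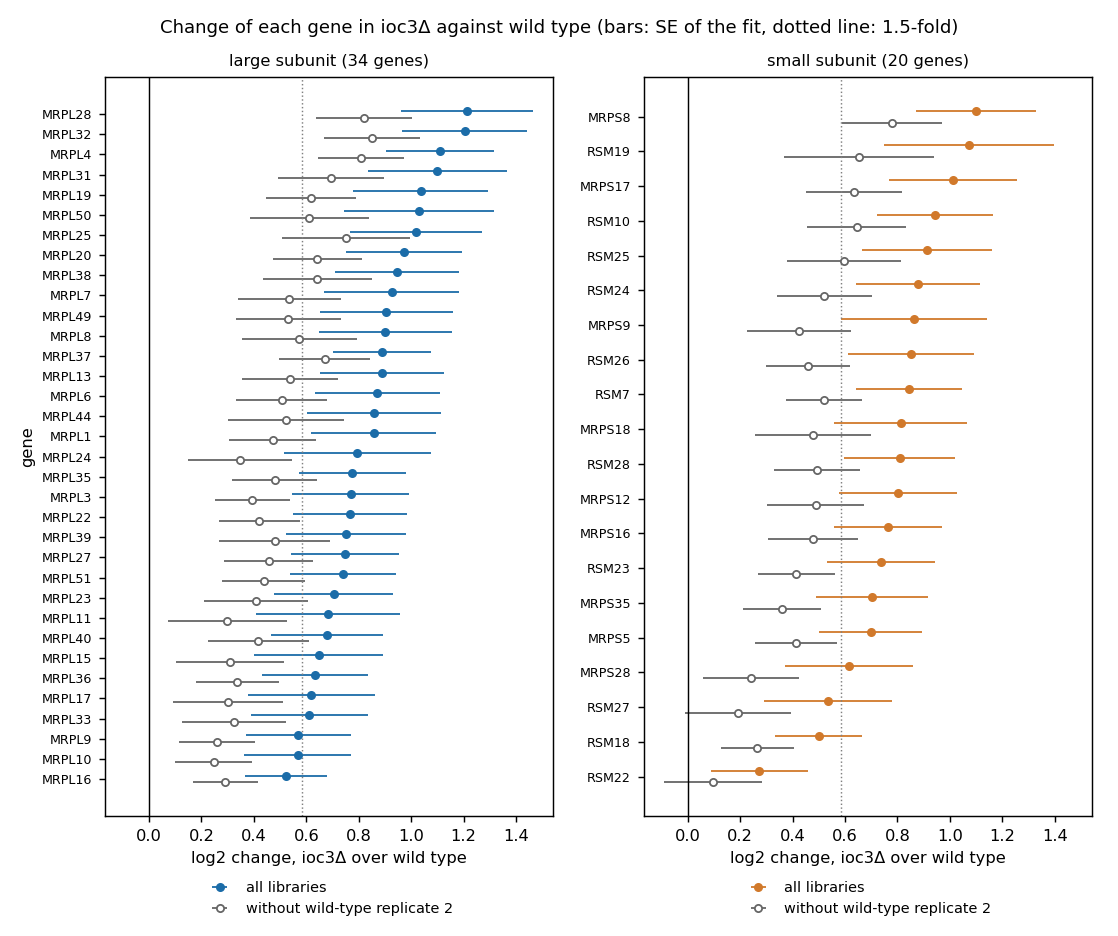
Log2 change of each gene (rows) in *ioc3*Δ over wild type with all libraries (filled, coloured) and without wild-type replicate 2 (open, grey), for the large subunit on the left and the small subunit on the right. Bars are the SE of the fit, and every gene lies above 0 in both, with *RSM22* at 0.27 and 0.10 at the foot of the small-subunit panel.

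Loss of only the cHLB part gave no calls. For *ioc3*Δ*cHLB* against wild type, limma called 0 of the 54 genes higher and 0 lower, with 0 at an unadjusted p under 0.05 and 0 calls by edgeR or DESeq2 (0.328% and 0.0173% of all genes were called higher and lower). The median change was −0.32 in the large and −0.28 in the small subunit, and 53 of 54 values were under 0. The lowest in the large subunit were *MRPL24* (−0.48 ± 0.28), *MRPL15* (−0.47 ± 0.25) and *MRPL31* (−0.44 ± 0.27), and the one above 0 was *MRPL4* (0.02 ± 0.21). In the small subunit they were *RSM19* (−0.43 ± 0.33), *RSM10* (−0.34 ± 0.22) and *RSM27* (−0.34 ± 0.24), with *MRPS12* (−0.16 ± 0.22) the nearest to 0. In no gene were the libraries of the strains apart in either direction (5.39% of all genes upward and 3.72% downward). *RSM19* read 37.4, 28.0 and 14.9 CPM in the *ioc3*Δ*cHLB* libraries, against 42.6, 18.6 and 49.6 CPM in wild type, and its lowest libraries were the outlying ones in both strains. With wild-type replicate 2 left out, 16 genes were called lower, at a median of −0.63 (0.623% of all genes). Without both outlying libraries 0 genes were called.

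The mutants differed from each other. For *ioc3*Δ*cHLB* against *ioc3*Δ, 53 of the 54 genes were called lower and 0 higher (7.57% and 2.42% of all genes tested), and in all 54 every *ioc3*Δ*cHLB* library lay under every *ioc3*Δ library (16.9% of all genes). The median log2 change was −1.12 in the large and −1.08 in the small subunit. *MRPL31* (mL60) read 59.6, 51.3 and 33.6 CPM in the *ioc3*Δ*cHLB* libraries, against 137, 130 and 148 CPM in *ioc3*Δ, a change of −1.54 ± 0.27 (adjusted p = 0.00183). *MRPL28* (−1.44 ± 0.25, adjusted p = 0.00187) and *MRPL32* (−1.41 ± 0.24, adjusted p = 0.00155) came next. *MRPL16* had the smallest large-subunit change (−0.79 ± 0.16, adjusted p = 0.00392) and passed the test.

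Among small-subunit genes in the same comparison, *RSM19* read 37.4, 28.0 and 14.9 CPM in the *ioc3*Δ*cHLB* libraries, against 72.1, 69.4 and 77.0 CPM in *ioc3*Δ, a change of −1.5 ± 0.33 (adjusted p = 0.00602). *MRPS8* changed by −1.38 ± 0.23 (adjusted p = 0.00148) and *RSM10*, encoding uS10m, by −1.28 ± 0.22 (adjusted p = 0.00183). *RSM22*, the one gene not called, read 63.5, 53.2 and 38.0 CPM in the *ioc3*Δ*cHLB* libraries, against 63.6, 76 and 73.6 CPM in *ioc3*Δ. Its libraries did not overlap, by the narrow margin of replicate 1, and its change of −0.48 ± 0.18 (adjusted p = 0.0907) was under 1.5-fold. Leaving out any single library gave 53 or 54 calls, and each other setting tried gave 53.

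Deletion of *YAF9* alone gave few calls, and they rested on wild-type replicate 2. In *yaf9*Δ against wild type, 6 of the 54 genes were called higher and 0 lower, against 3.91% and 3.61% of all genes tested, while 22 genes had no overlap between the strains (19.6% of all genes). The called genes were *MRPS12* (0.81 ± 0.22, adjusted p = 0.0317), *MRPL19* (0.78 ± 0.26, adjusted p = 0.061), *MRPS17* (0.78 ± 0.25, adjusted p = 0.0542), *RSM26* (0.76 ± 0.24, adjusted p = 0.0529), *RSM10* (0.68, adjusted p = 0.0605) and *MRPL4* (0.59 ± 0.21, adjusted p = 0.0801). *MRPL6*, at 0.62 ± 0.24, had an adjusted p of 0.105. At the other end were *MRPL8* (0.00 ± 0.25) and *MRPS5* (0.06 ± 0.20). The medians were 0.39 in the large and 0.44 in the small subunit.

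*MRPS12* had the lowest adjusted p here, at 236, 208 and 206 CPM in *yaf9*Δ, against 169, 79.3 and 139 CPM in wild type, without overlap. Without wild-type replicate 2, 0 of the 54 genes were called by limma in this comparison, with 4 at an unadjusted p under 0.05, and the median was 0.06. Without wild-type replicates 1 or 3 the count was 18 or 17. Without *yaf9*Δ replicates 1, 2 or 3 it was 0, 2 or 1.

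In cells lacking Yaf9, loss of Ioc3 again went with higher levels. In *ioc3*Δ *yaf9*Δ against *yaf9*Δ, 12 of the 54 genes were called higher and 0 lower, against 3.53% and 6.17% of all genes, while in 47 genes the strains did not overlap (20% of all genes). The median was 0.54 in the large and 0.51 in the small subunit. *MRPL4* read 184, 156 and 151 CPM in *ioc3*Δ *yaf9*Δ, against 88.0, 75.9 and 88.1 CPM in *yaf9*Δ, a change of 0.95 ± 0.21 (adjusted p = 0.00724). *MRPL31* changed by 0.87 ± 0.27 (adjusted p = 0.0411) and *MRPL20*, encoding mL58, by 0.70 ± 0.22 (adjusted p = 0.0471).

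*RSM19* read 85.9, 72.9 and 98.1 CPM in *ioc3*Δ *yaf9*Δ, against 46.2, 44.0 and 42.3 CPM in *yaf9*Δ, a change of 0.93 ± 0.33 (adjusted p = 0.0682). *MRPS5*, encoding uS5m, changed by 0.66 ± 0.20 (adjusted p = 0.0358) and *RSM7*, encoding uS7m, by 0.64 ± 0.20 (adjusted p = 0.0473). The other 6 called were *MRPL25* (0.69), *MRPL28* (0.68), *MRPL40* (0.68), *MRPL8* (0.67), *MRPL32* (0.66) and *MRPS8* (0.61), with adjusted p between 0.0434 for *MRPL40* and 0.0859 for *MRPL8*. *MRPL33* (0.18 ± 0.22) had the smallest large-subunit change. *MRPS12*, which lies next to *RSM19*, read 200, 174 and 265 CPM in *ioc3*Δ *yaf9*Δ, against 236, 208 and 206 CPM in *yaf9*Δ, which overlap (−0.04 ± 0.22, adjusted p = 0.925). The number called depended on single libraries, with 3, 2 and 2 genes without *yaf9*Δ replicates 1, 2 and 3, and 1 and 6 genes without *ioc3*Δ *yaf9*Δ replicates 1 and 3.

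Loss of the cHLB part in cells lacking Yaf9 also gave no calls. Between *ioc3*Δ*cHLB yaf9*Δ and *yaf9*Δ, limma called 0 of the 54 genes higher and 0 lower, as did edgeR and DESeq2, with 3 at an unadjusted p under 0.05 (2% and 2.63% of all genes were called higher and lower). The medians were −0.27 and −0.25, and in 12 genes every *ioc3*Δ*cHLB yaf9*Δ library was the lower (16.2% of all genes). The lowest values were those of *MRPL23* (−0.56 ± 0.23), *MRPL33* (−0.47 ± 0.22) and *MRPL44* (−0.44 ± 0.26), and of *RSM27* (−0.61 ± 0.24), *MRPS18* (−0.49 ± 0.25) and *MRPS12* (−0.39 ± 0.22). *MRPL4* (0.06 ± 0.21) and *MRPS5* (−0.07 ± 0.20) were at the other end. Without *ioc3*Δ*cHLB yaf9*Δ replicate 1, 3 genes were called lower, and without wild-type replicate 2, which enters only through the shared estimate of the spread, 1 gene was.

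Between the double mutants the set again separated. For *ioc3*Δ*cHLB yaf9*Δ against *ioc3*Δ *yaf9*Δ, 45 of the 54 genes were called lower (27 of 34 and 18 of 20) and 0 higher, against 2.77% and 2.04% of all genes tested, and in 51 genes the libraries did not overlap (10.5% of all genes). The medians were −0.79 and −0.75. *MRPL8* (bL17m) read 110, 67.1 and 66.9 CPM in the *ioc3*Δ*cHLB yaf9*Δ libraries, against 173, 161 and 164 CPM in *ioc3*Δ *yaf9*Δ, a change of −1.06 ± 0.25 (adjusted p = 0.0403). *MRPL31* (−1.03 ± 0.27, adjusted p = 0.048) and *MRPL25* (−0.97 ± 0.25, adjusted p = 0.046) followed.

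*RSM19* read 54.1, 30.5 and 29.8 CPM in the *ioc3*Δ*cHLB yaf9*Δ libraries, against 85.9, 72.9 and 98.1 CPM in *ioc3*Δ *yaf9*Δ, a change of −1.19 ± 0.33 (adjusted p = 0.0555). *RSM7* changed by −0.88 ± 0.20 (adjusted p = 0.037) and *MRPS9*, encoding uS9m, by −0.85 ± 0.28 (adjusted p = 0.0855). *MRPS12* had the smallest change of all 54 (−0.35 ± 0.22, adjusted p = 0.367). The other 8 not called were *MRPL24* (−0.79), *MRPL50* (−0.78), *MRPL49* (−0.70), *MRPL33* (−0.65), *MRPL6* (−0.64), *RSM10* (−0.63), *MRPL36* (−0.57) and *MRPL39* (−0.57), with adjusted p between 0.101 for *MRPL33* and 0.155 for *MRPL39*. *RSM22* was called here. The adjusted p of many genes lay near the threshold, so the count fell to 0, 20 and 23 without *ioc3*Δ *yaf9*Δ replicates 1, 2 and 3 and to 0 and 1 without *ioc3*Δ*cHLB yaf9*Δ replicates 2 and 3, while the median stayed between −0.68 and −0.93.

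Deleting *YAF9* in cells that already lacked Ioc3 gave no calls. In *ioc3*Δ *yaf9*Δ against *ioc3*Δ, 0 of the 54 genes were called in either direction by limma, edgeR or DESeq2, with 1 at an unadjusted p under 0.05 (3.49% and 9.96% of all genes were called higher and lower). The medians were 0.09 in the large and 0.20 in the small subunit. The largest values were those of *MRPL4* (0.43 ± 0.21), *MRPL40* (0.43 ± 0.21) and *MRPL22* (0.33 ± 0.22), and of *RSM26* (0.45 ± 0.24), *RSM7* (0.35 ± 0.20) and *MRPS35* (0.34 ± 0.21). In the small subunit *MRPS18* (−0.07 ± 0.25) was the lowest. *MRPL39*, encoding bL33m, read 52.5, 43.8 and 69.6 CPM in *ioc3*Δ *yaf9*Δ, against 80.5, 65.3 and 86.4 CPM in *ioc3*Δ, the most opposite value of the set (−0.49 ± 0.23, adjusted p = 0.125). Its libraries overlapped, and it was called lower without *ioc3*Δ replicate 2 or without *ioc3*Δ *yaf9*Δ replicate 3. In 21 genes every *ioc3*Δ *yaf9*Δ library was the higher and in 2 every one was the lower (18.4% and 22.6% of all genes).

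In the cHLB background the same deletion went with higher levels in part of the set. With *ioc3*Δ*cHLB yaf9*Δ set against *ioc3*Δ*cHLB*, 13 of the 54 genes were called higher and 0 lower, against 3.85% and 5.06% of all genes, while 26 did not overlap (13.2% of all genes). The medians were 0.43 and 0.49. *RSM26*, encoding mS42, changed by 0.91 ± 0.24 (adjusted p = 0.0204) and *MRPS17* by 0.75 ± 0.25 (adjusted p = 0.0519). *RSM10* read 132, 94.4 and 107 CPM in the *ioc3*Δ*cHLB yaf9*Δ libraries, against 66.2, 74.9 and 42.0 CPM in the *ioc3*Δ*cHLB* libraries, without overlap (0.88 ± 0.22, adjusted p = 0.0169).

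Of the large subunit in this comparison, *MRPL31* (0.82 ± 0.27, adjusted p = 0.052), *MRPL22* (0.74 ± 0.22, adjusted p = 0.0351) and *MRPL24* (0.73 ± 0.28, adjusted p = 0.0956) led. The other 7 called were *MRPL3* (0.67), *MRPS8* (0.67), *MRPL6* (0.64), *MRPL4* (0.63), *MRPL35* (0.63), *MRPS35* (0.61) and *RSM7* (0.60). *MRPL33* (−0.07 ± 0.22) and *RSM27* (0.12 ± 0.24) were lowest. Without *ioc3*Δ*cHLB* replicate 3 the count was 2, and without *ioc3*Δ*cHLB yaf9*Δ replicates 1, 2 or 3 it was 3, 8 or 8.

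**Figure D5:**
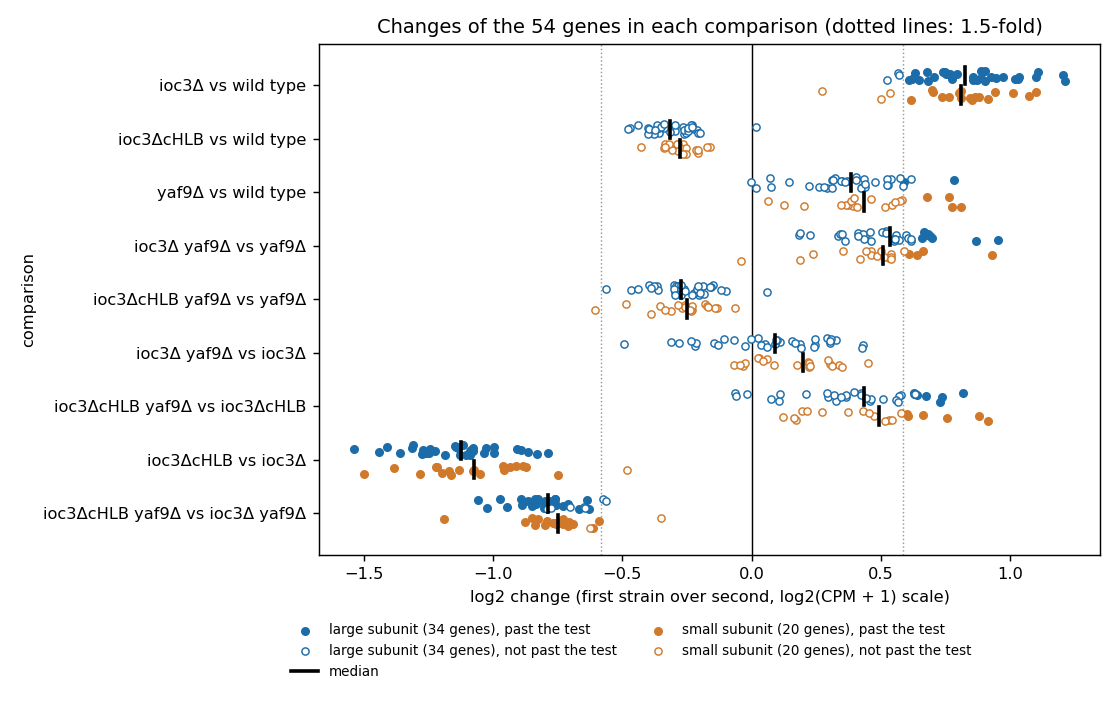
Log2 change of each gene (horizontal axis) in the 9 comparisons (rows), large subunit above small subunit within a row. Filled points passed the test, open points did not, and black bars are medians. The points of *ioc3*Δ against wild type lie to the right of 0 and those of both comparisons of a cHLB strain with the matching Ioc3-less strain lie to the left.

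Whether the effect of each *IOC3* mutation differed with and without Yaf9 was tested as an interaction in the same fit. No gene of the 54 passed in either test by limma, edgeR or DESeq2, and at an unadjusted p under 0.05 there were 1 and 0. For *ioc3*Δ, 3.27% and 6.12% of all genes passed in the positive and negative direction. The median difference (the *ioc3*Δ effect in *yaf9*Δ cells minus that in *YAF9* cells) was −0.31, and it was 0.01 without wild-type replicate 2. *MRPS12* was the most negative at −0.84, and it passed when wild-type replicate 1, *ioc3*Δ replicate 2, *ioc3*Δ *yaf9*Δ replicate 3 or *ioc3*Δ*cHLB yaf9*Δ replicate 1 was left out. For *ioc3*Δ*cHLB*, 0.0173% and 0.104% passed. The median was 0.03, and 0.37 without wild-type replicate 2. Without that library limma again passed 0 of the 54 genes in either test, with 1 and 6 at an unadjusted p under 0.05, while 3.06% of all genes passed in the positive direction for *ioc3*Δ. These comparisons share control libraries, so the values are given side by side and no overlap between them is drawn on.

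The balance between the subunits was read from summed levels. The ratio of summed large-subunit to small-subunit CPM was 1.36, 1.34 and 1.34 in *ioc3*Δ*cHLB yaf9*Δ, 1.42, 1.38 and 1.38 in *ioc3*Δ *yaf9*Δ, and 1.33, 1.31 and 1.35 in *yaf9*Δ. It was 1.39, 1.42 and 1.39 in *ioc3*Δ*cHLB*, 1.47, 1.44 and 1.47 in *ioc3*Δ, and 1.44, 1.45 and 1.45 in wild type. Each strain lacking Yaf9 lay under its *YAF9* counterpart in all 3 libraries, and wild-type replicate 2 did not stand apart in this ratio. With *YAF9* present, the *ioc3*Δ*cHLB* libraries also all lay under those of wild type, while *ioc3*Δ*cHLB yaf9*Δ and *yaf9*Δ overlapped. Without *MRPS12* the ratio was 1.46, 1.44 and 1.47 in *yaf9*Δ and 1.56, 1.56 and 1.55 in wild type. With 3 libraries against 3 an exact permutation test cannot go under 0.1, so none is given.

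Other genes of mitochondrial translation were read from fixed lists, to be set against the 9.04% of all genes called higher in *ioc3*Δ against wild type. Of the mitochondrial ribosomal genes with other names, 10 of 11 large-subunit and 12 of 13 small-subunit genes were called higher (medians 0.76 and 0.84), with *IMG2* (0.99 ± 0.25), *MRP20* (0.97 ± 0.15), *MRP21* (1.09 ± 0.21) and *MRP1* (1.01 ± 0.26) among the largest. All 12 mitochondrial aminoacyl-tRNA synthetase genes were called higher, with a median of 0.82. They charge tRNAs with amino acids inside mitochondria, and *MSY1* (tyrosine, 1.26 ± 0.28), *MSF1* (phenylalanine, 1.26 ± 0.33) and *MSK1* (lysine, 1.06 ± 0.22) changed most. Of 9 translation factor genes 5 were higher, including the initiation factor gene *IFM1* (1.12 ± 0.24), the elongation factor gene *MEF1* (1.09 ± 0.31) and the ribosome recycling factor gene *RRF1* (1.0 ± 0.24). Of 11 assembly and rRNA modification genes 2 were higher, *MAM33* (1.27 ± 0.31) and *MBA1* (0.60 ± 0.22). Of 14 translational activators of mitochondrial mRNAs 5 were higher, and *CBP6* (1.0 ± 0.22) and *MSS51* (0.94 ± 0.18) led. Of 23 import genes 4 were higher, and of 9 genes for mitochondrial DNA and transcription 1, *SUV3* (0.71 ± 0.24), a share near that of all genes.

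These counts were smaller without wild-type replicate 2, when 7.65% of all genes were called higher. Then 3 of 11, 3 of 13 and 3 of 12 genes were called higher among the other large-subunit genes, the other small-subunit genes and the synthetases, with medians of 0.48, 0.49 and 0.51. Of the translation factor genes 4 of 9 were called, of the activators 2 of 14 (*CBP6* and *MSS51*) and of the assembly genes 1 of 11 (*MAM33*, 0.75 ± 0.20). Of the import genes 0 of 23 were called by limma, with 7 at an unadjusted p under 0.05, and of the genes for mitochondrial DNA and transcription 0 of 9, with 1 at an unadjusted p under 0.05 (*SUV3* 0.42 ± 0.22, adjusted p = 0.214).

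Nuclear genes for the respiratory chain and the ATP synthase moved the other way. The study named these themes for genes lowered in its double mutants. Among genes raised in its *ioc3*Δ *yaf9*Δ strain against wild type, it listed mitochondrial translation as an enriched theme. Of 24 nuclear respiratory chain genes 12 were called lower in *ioc3*Δ against wild type and 0 higher (median −0.57, with 3.11% of all genes called lower), led by the complex III subunits *QCR7* (−1.07 ± 0.21), *QCR6* (−1.05 ± 0.16) and *QCR10* (−1.04 ± 0.20). Of 16 ATP synthase genes 9 were lower and 0 higher (median −0.63), led by the ATPase inhibitor gene *INH1* (−1.81 ± 0.26). Without wild-type replicate 2 the counts were 7 and 8 (3.37% of all genes). Of 132 cytosolic ribosomal protein genes 0 were called by limma, with 77 at an unadjusted p under 0.05 and a median of −0.30, and without wild-type replicate 2 again 0, with 44 and −0.27. In *ioc3*Δ*cHLB* against *ioc3*Δ, 12 of 12 synthetase genes and 24 of 24 mitochondrial ribosomal genes with other names were lower, and 13 of 24 respiratory chain genes were higher.

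Genes outside the set that carry the Puf3 letters after a C numbered 222, of which 99 were called higher and 2 lower in *ioc3*Δ against wild type, with a median of 0.55. Of 4720 other genes without the letters, 290 were called higher and 156 lower, with a median of −0.01. Without wild-type replicate 2, 42 of the 222 were called higher and 5 lower (median 0.35), and of 4717 genes without the letters 312 were higher and 171 lower. In *ioc3*Δ*cHLB* against *ioc3*Δ, 120 of the 222 were lower (median −0.68) and 182 of the 4720 were. Within the 54 genes, the 43 with the C and the 11 without it had medians of 0.81 and 0.80 in *ioc3*Δ against wild type. The lists overlap in function, and the part of Puf3 in these differences was not tested. *PUF3* itself read between 22.1 CPM in *ioc3*Δ*cHLB* replicate 1 and 50.1 CPM in *ioc3*Δ *yaf9*Δ replicate 3. Its log2 change was 0.39 ± 0.13 in *ioc3*Δ against wild type (adjusted p = 0.0419), under 1.5-fold, and 0.35 ± 0.15 (adjusted p = 0.121) without wild-type replicate 2. Changes of *PUF3* in other comparisons had the sign of the medians of the 54 genes, but not always their size. They were 0.52 ± 0.13 in *yaf9*Δ against wild type (adjusted p = 0.019) and 0.43 ± 0.13 in *ioc3*Δ *yaf9*Δ against *ioc3*Δ (adjusted p = 0.0237). In *ioc3*Δ*cHLB* against *ioc3*Δ the change was −0.46 ± 0.13 (adjusted p = 0.0244). *HAP4*, which encodes the activating subunit of the Hap complex for respiratory genes, had a log2 change of −0.56 ± 0.27 (adjusted p = 0.16), and of −0.37 ± 0.29 (adjusted p = 0.424) without that library.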

How the data were processed

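RNA-seq was analysed from 18 libraries, 6 strains with 3 independent biological replicates each. Per the study's methods, stranded paired-end mRNA libraries were mapped to sacCer3 with TopHat2 2.0.10 and Bowtie2 2.0 and counted with HTSeq, and edgeR 3.6.2 was used for expression. The deposited values are a signal, which the authors made by dividing read counts by effective library sizes to CPM. Whole reads were recovered for 100% of values (within 0.01 reads). The table held 5830 genes, and 4 emptied lines were skipped. RefSeq R64 matched 5634 IDs and 196 were not matched, so the motif shares cover fewer genes than the tests.

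Genes reaching 1 CPM in 3 or more libraries were tested with limma 3.58.1 (R 4.3.3, trend) on log2(CPM + 1) over all 18 libraries, with Benjamini-Hochberg adjustment over all genes. Fold changes are on that scale, which understates changes of low genes. A call needed an adjusted p under 0.1 and 1.5-fold, as in the study. Alternatives included edgeR 4.0.16 and DESeq2 1.42.0 on the recovered reads, a pseudocount of 0.25 or 5, array weights, median-of-ratios scaling, all genes unfiltered, only the compared groups, a replicate block, an adjusted p of 0.05 and each library left out. The fits were tested on simulated data in which genes varied independently and no library was outlying. That test does not cover outlying libraries or genes that vary together.

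The genes and lists were chosen with earlier results of these data known. Named are, in each comparison and subunit, the 3 largest changes in the direction of the median and the smallest or most opposite one, all genes not called where over 75% are called, all called where under 25% are, and the highest and lowest per kb. *HSP12*, the mating-type genes, *LYS2* and the other auxotrophic marker genes were chosen after their values were seen. Libraries of equal replicate number deviated together in *ioc3*Δ and wild type (correlations of deviations 0.21, 0.21 and 0.11). They also did in *ioc3*Δ *yaf9*Δ and *ioc3*Δ (0.23, 0.60 and 0.57), judged from the data only. In *ioc3*Δ*cHLB* and wild type the correlations were −0.13, −0.47 and −0.64, so equal numbers need not mean a shared batch.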

Additional observations from a re-analysis of the deposited data

How the results depend on the processing

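Counts are genes called out of the 54. The *ioc3*Δ*cHLB* against *ioc3*Δ count was within 1.5 times of its 53 in every setting, ranging between 53 and 54 over single libraries left out. With single libraries left out, the other counts were 14 to 53 for *ioc3*Δ against wild type, 0 to 16 for *ioc3*Δ*cHLB* against wild type, 0 to 18 for *yaf9*Δ against wild type, 1 to 17 for *ioc3*Δ *yaf9*Δ against *yaf9*Δ, 0 to 3 for *ioc3*Δ*cHLB yaf9*Δ against *yaf9*Δ, 0 to 1 for *ioc3*Δ *yaf9*Δ against *ioc3*Δ, 2 to 16 for *ioc3*Δ*cHLB yaf9*Δ against *ioc3*Δ*cHLB*, 0 to 53 for *ioc3*Δ*cHLB yaf9*Δ against *ioc3*Δ *yaf9*Δ, and 0 to 1 for the interaction of *ioc3*Δ and *yaf9*Δ. Leaving out both wild-type replicate 2 and *ioc3*Δ*cHLB* replicate 3 gave 15 for *ioc3*Δ and 0 for *yaf9*Δ against wild type, 1 for *ioc3*Δ*cHLB yaf9*Δ against *yaf9*Δ and 2 against *ioc3*Δ*cHLB*.

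Array weights gave 1 for *yaf9*Δ against wild type, 24 for *ioc3*Δ *yaf9*Δ against *yaf9*Δ, 6 for *ioc3*Δ*cHLB yaf9*Δ against *yaf9*Δ, 1 for *ioc3*Δ *yaf9*Δ against *ioc3*Δ, 5 for *ioc3*Δ*cHLB yaf9*Δ against *ioc3*Δ*cHLB* and 1 for the interaction of *ioc3*Δ. An adjusted p under 0.05 gave 1 for *yaf9*Δ against wild type, 6 for *ioc3*Δ *yaf9*Δ against *yaf9*Δ, while *ioc3*Δ*cHLB yaf9*Δ gave 3 against *ioc3*Δ*cHLB* and 11 against *ioc3*Δ *yaf9*Δ. Fitting only the compared groups gave 3 for *yaf9*Δ against wild type and 6 for *ioc3*Δ*cHLB yaf9*Δ against *ioc3*Δ*cHLB*. The cause of these moves was not tested. The tools, pseudocounts, filter and scaling kept every count within 1.5 times.

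With the replicate block, 48 genes were called for *ioc3*Δ against wild type and 0 for *ioc3*Δ *yaf9*Δ against *ioc3*Δ, the pairs whose numbers deviate together. The samples of the other strains share only a number, and there the block gave 7 in place of 6 for *yaf9*Δ against wild type, 14 in place of 12 for *ioc3*Δ *yaf9*Δ against *yaf9*Δ, 15 in place of 13 for *ioc3*Δ*cHLB yaf9*Δ against *ioc3*Δ*cHLB*, 50 in place of 45 between the double mutants, and 1 (*MRPS12*) in place of 0 for the interaction of *ioc3*Δ. It changed no other count.

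Some values near 0 changed sign. For *MRPL4* in *ioc3*Δ*cHLB* against wild type, array weights gave −0.1155, edgeR −0.0421, DESeq2 −0.0383 and the fit without both outlying libraries −0.1785, and single libraries left out gave −0.2845 to 0.1870. In *ioc3*Δ*cHLB yaf9*Δ against *yaf9*Δ array weights gave −0.1916 for *MRPL4*, with a range of −0.0573 to 0.2337 over single libraries, and *MRPS5* ranged between −0.1514 and 0.0075. For *RSM27* in *ioc3*Δ*cHLB yaf9*Δ against *ioc3*Δ*cHLB*, array weights gave −0.1525, the fit without both libraries −0.0574 and single libraries −0.1255 to 0.2517, and *MRPL33* ranged between −0.2799 and 0.0588. In *yaf9*Δ against wild type, *MRPL8* was 0.0095 with median-of-ratios scaling and −0.3298 to 0.2158 over single libraries, and *MRPS5* was −0.1180 with array weights, −0.2236 without both libraries and −0.2236 to 0.2509 over single libraries. Over single libraries, *MRPS18* in *ioc3*Δ *yaf9*Δ against *ioc3*Δ ranged between −0.2132 and 0.0984, *MRPS12* in *ioc3*Δ *yaf9*Δ against *yaf9*Δ between −0.2094 and 0.0913, and *MRPS12* in *ioc3*Δ*cHLB* against wild type between −0.4734 and 0.0681. The 54 genes had 111 to 2903 reads each per library, over 3 libraries a strain.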

Other observations

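In cells lacking Yaf9, nuclear respiratory chain genes were called lower with either *IOC3* mutation, 21 of 24 with *ioc3*Δ and 10 of 24 with *ioc3*Δ*cHLB*. In *ioc3*Δ *yaf9*Δ against *yaf9*Δ, 0 of the 24 were higher (median −1.02), and 13 of 16 ATP synthase genes were lower (median −0.90), while 6.17% of all genes were called lower. With *ioc3*Δ*cHLB yaf9*Δ set against *yaf9*Δ, the median was −0.56 and 10 of 16 ATP synthase genes were lower (median −0.61, and 2.63% of all genes), although none of the 54 mitochondrial ribosomal protein genes was called there. For the cytosolic ribosomal proteins, the interaction of *ioc3*Δ and *yaf9*Δ was positive and past the test in 16 of 132 genes (median 0.43), where 3.27% of all genes were. Without wild-type replicate 2 it was so in 9 of 132 (median 0.39), where 3.06% of all genes were.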
